A study of Mus musculus with 5 samples.

Results

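The cells described here are the pericytes and vascular smooth muscle cells, together the mural cells, of mouse mammary glands profiled by droplet single-cell RNA sequencing. A cell barcode was counted as a mural cell when it held at least 300 genes, at most 20% mitochondrial counts, at least 2 unique molecular identifiers (UMIs, each tagging 1 captured RNA molecule) of Rgs5 and at least 1 UMI of Des, Notch3, Mcam, Kcnj8, Abcc9, Higd1b or Myh11. It also had to lack Epcam, Ptprc and Pecam1, the markers of epithelium, leukocytes and endothelium, and to hold at most 1 UMI of Krt14, a basal epithelial keratin. This rule took 501 of the 33551 barcodes that passed the gene and mitochondrial limits, of 34526 barcodes in all. The 4 gland libraries held 500 of the mural cells and the tumor library held 1.

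The study followed glands of mice heterozygous for a floxed Brca1 allele under a DNA-damaging agent, 4-nitroquinoline 1-oxide (4NQO). Genotype BPK is Brca1 wt/flox, Trp53 flox/flox, Krt14cre, and genotype PK is Brca1 wt/wt, Trp53 flox/flox, Krt14cre, so that every group carried homozygous floxed Trp53 and the Cre transgene. The groups are BPK glands given 12 intraductal injections of 4NQO (2 libraries, replicates 1 and 2), BPK glands given 12 of PBS/PEG vehicle (1 library), PK glands given 12 of 4NQO (1 library) and 1 BPK tumor that arose after 24 injections of 4NQO. The labels do not say whether the 2 BPK 4NQO libraries came from separate animals. The p-values measure only the spread between those samples, which the fit of the mural cells pooled over genes. Krt14cre is active in Krt14-expressing epithelium, and mural cells are not its target. Trp53 was read at 68.5 and 58.1 CPM in the mural cells of the BPK 4NQO replicates, 69.7 CPM in BPK vehicle and 54.3 CPM in PK 4NQO, where CPM is UMIs per 1000000 UMIs of the mural cells of a library. Brca1 had 1 UMI in all in the mural cells of the 4 gland libraries, and a 3′ tag does not show whether a floxed exon is present.

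Mural cells wrap the endothelial tube of blood vessels and share its basement membrane. Pericytes lie on capillaries and express the potassium channel pair Kcnj8 and Abcc9, whereas smooth muscle cells surround arteries, arterioles and veins and carry a contractile apparatus built on smooth muscle actin and myosin. Endothelial platelet-derived growth factor acting on Pdgfrb recruits both cell types, Notch3 maintains them, and in inflamed tissue they secrete chemokines that act on leukocytes.

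The gland libraries held 27383717 to 64169843 UMIs, and their mural cells 184072 to 378688. The median mural cell held 1683 and 2049 UMIs in BPK 4NQO replicates 1 and 2, 1573 in BPK vehicle and 1486 in PK 4NQO. At these depths the limit that a count of 0 allows, 3 UMIs, was 10.8, 7.92, 13.1 and 16.3 CPM in that order. BPK 4NQO replicate 2 stood apart from the other glands. It shared 1 or 2 barcodes with any other library, against 26 to 107 for the other pairs, and no barcode of a mural cell occurred in more than 1 library. Its mural cells read 156900 CPM of Gm42418, which overlaps a ribosomal RNA repeat, against 3329 CPM in replicate 1, 4213 CPM in BPK vehicle and 3982 CPM in PK 4NQO. Results are therefore also given for each BPK 4NQO replicate.

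The genes of the rule are described first, as values that chose the cells. Rgs5, a regulator of G-protein signalling that marks pericytes, had a median of 5 and 6 UMIs per mural cell in the BPK 4NQO replicates and 5 in each of BPK vehicle and PK 4NQO. It reached 48, 85, 37 and 99 UMIs in single cells of those libraries. In endothelial cells, defined by Pecam1 and Cdh5 and by at most 1 Rgs5 UMI, it read 30.9 to 45.5 CPM, against 3407 to 4210 CPM in mural cells.

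Among the second genes, Notch3, the mural Notch receptor, read 408 and 470 CPM in the BPK 4NQO replicates, 274.5 CPM in BPK vehicle and 369 CPM in PK 4NQO. Des, the intermediate filament desmin, read 328, 407, 362 and 445.5 CPM in the same order, and was thus nearly level over the glands. Higd1b, a pericyte gene of unclear function, varied more, at 375 and 182 CPM in BPK 4NQO, 231 CPM in BPK vehicle and 587 CPM in PK 4NQO. Kcnj8, the pore of the vascular ATP-sensitive potassium channel, read 166, 29.1, 187 and 163 CPM, so that BPK 4NQO replicate 2 lay well under the others. Its regulatory subunit Abcc9 did not follow that pattern and read 321, 269, 261 and 206 CPM. Mcam, an adhesion molecule of vessels, was low in every gland at 115, 92.4, 122 and 86.9 CPM. All 4 genes proposed as markers of the cells, Rgs5, Notch3, Des and Higd1b, were thus present in the mural cells of every gland.

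Most mural cells met the rule through more than 1 second gene. At least 2 of the 7 were detected in 101 of 140 and 109 of 132 mural cells of the BPK 4NQO replicates, 84 of 123 of BPK vehicle and 72 of 105 of PK 4NQO. With every cell thinned to 1000 UMIs, which left 119, 114, 103 and 86 mural cells of the 4 glands, Des was detected in 26.3% to 34.95% of mural cells and in 0.127% to 0.326% of luminal epithelial cells, which should lack it. Abcc9 was detected in 23.3% to 26.3% of thinned mural cells and in 0.0228% to 0.244% of luminal cells. Notch3 was detected in 23.3% to 32.5% of mural cells and in 3.18% to 3.53% of luminal cells.

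At the edge of the rule, 23, 21, 29 and 22 mural cells of the 4 glands held exactly 2 Rgs5 UMIs, while 24, 48, 48 and 35 barcodes met every other condition with exactly 1. Acta2 was detected in 47.8% and 71.4% of the cells just inside in BPK 4NQO, 48.3% in BPK vehicle and 50% in PK 4NQO. Just outside it was detected in 66.7% and 68.8%, 66.7% and 71.4%. Higd1b was detected in 39.1%, 14.3%, 24.1% and 36.4% just inside and in 20.8%, 8.33%, 29.2% and 14.3% just outside.

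Beyond the rule, the mural cells carried a set of genes that were higher in them than in endothelial cells, fibroblasts, basal cells and luminal cells of each of the 4 glands. These are descriptions, since the rule chose the cells. Rrad, a small GTPase that restrains calcium channels, read 545 and 335 CPM in the BPK 4NQO replicates, 1154 CPM in BPK vehicle and 1043 CPM in PK 4NQO, and at most 65.7 CPM in endothelial cells. Cox4i2, a respiratory chain subunit of oxygen-sensing cells, read 227, 71.3, 183 and 255 CPM. Rgs4, a relative of Rgs5, read 321, 306, 514 and 592 CPM and was lower in both BPK 4NQO replicates than in the other glands. Vtn, the adhesive glycoprotein vitronectin, read 245, 108, 279 and 391 CPM.

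The soluble guanylate cyclase subunits Gucy1a3 and Gucy1b3, the nitric oxide receptor of smooth muscle, were steady over the glands. Gucy1a3 read 343 and 417 CPM in BPK 4NQO, 318 CPM in BPK vehicle and 304 CPM in PK 4NQO, and 13.0 to 26.5 CPM in endothelial cells. Gucy1b3 read 141, 219, 200.4 and 185 CPM. Il6, the cytokine interleukin-6, was also a mural gene here, with 1472 and 755 CPM in BPK 4NQO, 1647 CPM in BPK vehicle and 2325 CPM in PK 4NQO, against 90.9 to 172 CPM in endothelial cells. Pdgfrb read 249, 341, 235 and 185 CPM in mural cells, 109 to 143 CPM in fibroblasts and 11.4 to 21.5 CPM in endothelial cells. Cspg4, the NG2 proteoglycan often used to mark pericytes, was near the limit of detection at 18.03, 52.8, 4.36 and 27.2 CPM.

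**Figure D1:**
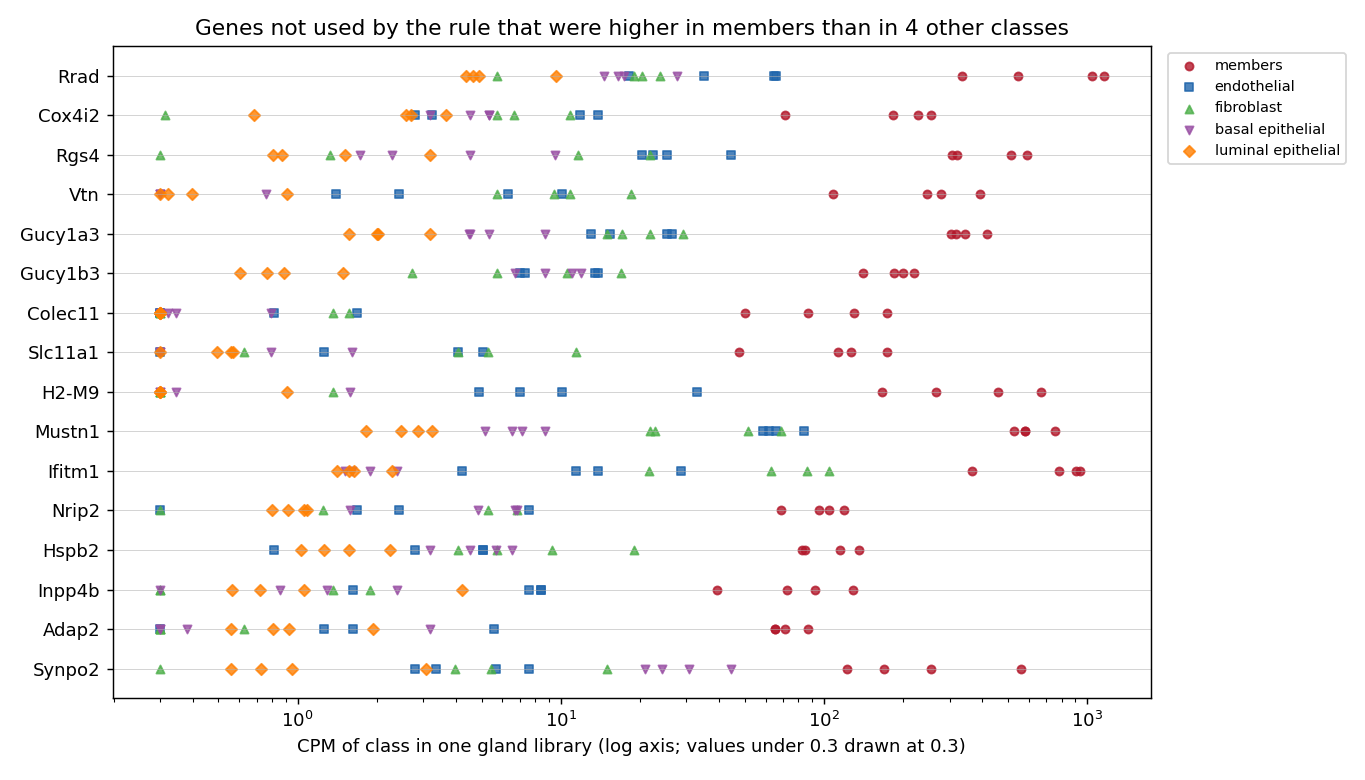
Each point is the level of a gene in 1 cell class of 1 gland library, in CPM of that class on a log axis, for 16 genes that the rule did not use. Red circles, the mural cells, lie to the right of the 4 other classes for every gene shown, for example Rrad at 335 to 1154 CPM in mural cells and at most 65.7 CPM in endothelial cells.

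Many of these barcodes also held endothelial RNA, although Pecam1 was 0 by the rule. A UMI of Cdh5, Cldn5, Egfl7 or Emcn, all endothelial genes, was found in 68 of 140 mural cells of BPK 4NQO replicate 1 (48.6%, exact 95% interval 40.0% to 57.2%) and 25 of 132 of replicate 2 (18.9%, 12.7% to 26.7%). It was found in 62 of 123 of BPK vehicle (50.4%, 41.3% to 59.5%) and 37 of 105 of PK 4NQO (35.2%, 26.2% to 45.2%). Replicate 2 thus held the smallest share. These intervals, like the others given here, cover counting error only.

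The 8 endothelial marker genes summed to 17190 and 2612 CPM in the mural cells of the BPK 4NQO replicates, 16220 CPM in BPK vehicle and 8078 CPM in PK 4NQO. In endothelial cells the same sum was 38060, 14980, 28360 and 26330 CPM. In the 308 gland mural cells without an endothelial UMI it was 3965, 1034, 2141 and 2500 CPM. The score of a doublet caller placed 13 mural cells of the 4 glands among the likely doublets. Whether the endothelial RNA came from capillary fragments sequenced as 1 barcode was not tested, and for the lists set against the vehicle gland below the counts and medians without these cells are also given.

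The mural cells with endothelial RNA also carried pericyte genes. Among mural cells without Myh11, the summed level of Kcnj8, Abcc9, Higd1b, Ndufa4l2 and Vtn was 1705, 1309, 1376 and 1235 CPM with endothelial UMIs, and 2138, 1091, 2028 and 2396 CPM without, so that the ranges overlapped. Kcnj8, Abcc9 and Higd1b are genes of the rule. A mural cell without Myh11 had to hold another of the second genes, so that their presence was set in advance. Outside the rule, with endothelial UMIs and no Myh11, Ndufa4l2 read 526, 192.5, 485 and 341 CPM. Vtn read 191, 269.5, 188 and 260 CPM in the same cells. In endothelial cells Ndufa4l2 read 8.39 to 26.5 CPM and Vtn 1.40 to 10.1 CPM.

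Within the mural cells, Myh11, the smooth muscle myosin heavy chain, separated a contractile end. Myh11 was detected in 34.3% of mural cells of BPK 4NQO replicate 1 (exact 95% interval 26.5% to 42.8%), 73.5% of replicate 2 (65.1% to 80.8%), 28.5% of BPK vehicle (20.7% to 37.3%) and 40.0% of PK 4NQO (30.6% to 50.02%). After thinning to 1000 UMIs it was detected in 28.6%, 64.9%, 23.3% and 32.6%, and in 0.287%, 2.69%, 0.365% and 0.425% of luminal cells at the same depth. Replicate 2 was above every other gland, and replicate 1 overlapped BPK vehicle and PK 4NQO. The mean difference of BPK 4NQO over BPK vehicle was 25.4 percentage points, and it was 45.0 points without replicate 1 and 5.83 points without replicate 2. Over PK 4NQO the mean difference was 13.9 points, and its sign turned to -5.71 points without replicate 2. The 2 replicates thus differed from each other by more than replicate 1 differed from either other gland, and these shares were not tested.

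Many of the genes that went with Myh11 were those of the contractile apparatus. Others were not, such as S100a4, 1.82 to 2.49 log2 units higher in Myh11-positive cells over the glands, and Igfbp5, 1.13 to 2.49 higher. Acta2, smooth muscle actin, read 6034 and 4658 CPM in the Myh11-positive mural cells of the BPK 4NQO replicates, 4897 CPM in BPK vehicle and 6004 CPM in PK 4NQO. In the mural cells without Myh11 it read 994, 472, 986 and 1425 CPM, so that the 2 sets did not overlap. Lmod1, leiomodin, which nucleates actin filaments in smooth muscle, was 2.12 to 2.81 log2 units higher in the Myh11-positive cells over the 4 glands. Tagln, the actin-binding transgelin, was 2.05 to 3.20 log2 units higher. Cnn1, calponin, was 1.49 to 4.02 log2 units higher and had 133 UMIs in Myh11-positive and 3 in Myh11-negative mural cells of all glands. Thbs1, the matricellular protein thrombospondin-1, was 1.28 to 2.58 log2 units higher. These cells were split on a gene of the rule and the ratios are given without a test.

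Contractile and endothelial RNA sat at opposite ends. The summed level of Acta2, Tagln, Tpm2, Cnn1 and Actg2 was 16410 and 11180 CPM in BPK 4NQO, 13450 CPM in BPK vehicle and 13950 CPM in PK 4NQO among cells with Myh11 and no endothelial UMI. Among cells with an endothelial UMI and no Myh11 it was 797 and 616 CPM, 532 CPM and 1170 CPM. In cells with neither it was 6514, 1491, 8352 and 5819 CPM, between those ends in every gland. The sum of Kcnj8, Abcc9, Higd1b, Ndufa4l2 and Vtn showed no such order. It ran from 689 to 2504 CPM in the first set and from 1235 to 1705 CPM in the second. Single pericyte genes differed in opposite directions. Abcc9 read 157, 190, 90.9 and 193 CPM in the first set and 462, 693, 391 and 211 CPM in the second. Steap4, outside that sum, read 0, 17.6, 90.9 and 55.0 CPM against 271, 269.5, 203 and 130 CPM. Higd1b was lower in the second set, at 327, 190, 227 and 880 CPM against 295, 154, 172 and 211 CPM.

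**Figure D2:**
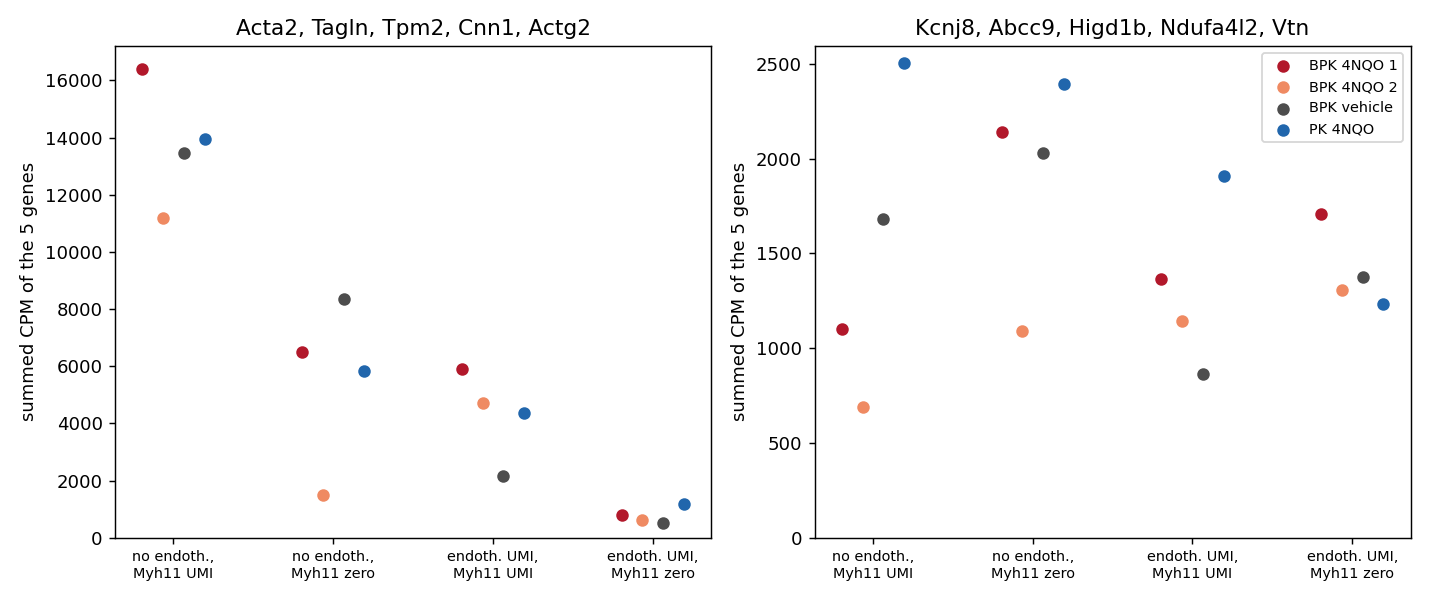
Points show the summed CPM of 5 contractile genes (left panel) and 5 pericyte genes (right panel) in mural cells split by Myh11 and by endothelial UMIs, 1 point per gland library. Contractile genes were highest in cells with Myh11 and no endothelial UMI, at 11180 to 16410 CPM, and lowest in cells with endothelial UMIs and no Myh11, at 532 to 1170 CPM.

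The share of mural cells among all passing barcodes was 1.87% in BPK 4NQO replicate 1 (140 of 7475, exact 95% interval 1.58% to 2.21%) and 1.90% in replicate 2 (132 of 6960, 1.59% to 2.25%). It was 1.31% in BPK vehicle (123 of 9388, 1.09% to 1.56%) and 1.41% in PK 4NQO (105 of 7438, 1.16% to 1.71%). Both BPK 4NQO replicates were above the other 2 glands, and their intervals lay above that of BPK vehicle but overlapped that of PK 4NQO. The log2 ratio of BPK 4NQO was 0.52 over BPK vehicle and 0.42 over PK 4NQO, and was not tested. A share follows how many cells of other types each suspension held and, because the rule needs 2 Rgs5 UMIs, the depth. With all barcodes thinned to 1000 UMIs the share was 1.74% and 1.74% in BPK 4NQO, 1.03% in BPK vehicle and 1.21% in PK 4NQO. Without the cells that held endothelial UMIs it was 0.963% and 1.54%, 0.650% and 0.914%, so that replicate 1 was close to PK 4NQO.

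Set against the endothelial cells of the same library, the order changed. There were 0.417 and 0.650 mural cells per endothelial cell in the BPK 4NQO replicates, 0.517 in BPK vehicle and 0.507 in PK 4NQO. The 2 replicates thus lay on either side of the other glands.

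**Figure D3:**
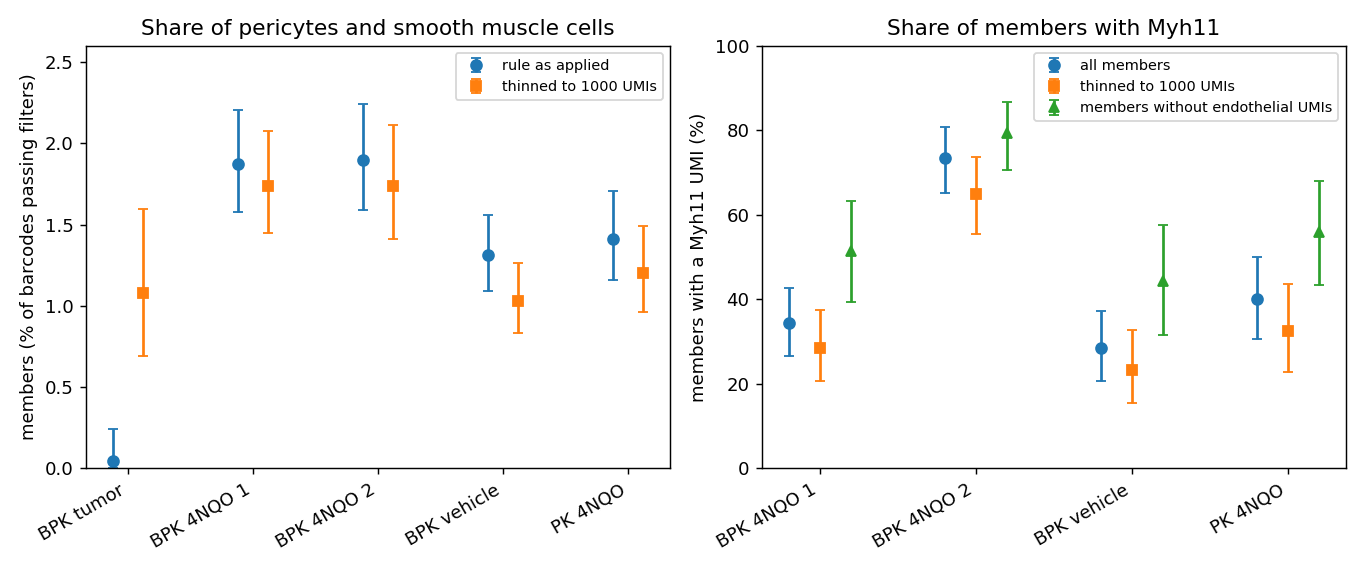
Left, the share of mural cells among passing barcodes in each library, as the rule gives it and after thinning every barcode to 1000 UMIs, with exact 95% intervals. Right, the share of mural cells with a Myh11 UMI in the 4 glands, also for mural cells without endothelial UMIs; BPK 4NQO replicate 2, at 73.5%, is above the other glands, at 28.5% to 40.0%.

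The difference between 4NQO and vehicle was tested on the summed UMIs of the mural cells, BPK 4NQO against BPK vehicle, with edgeR's quasi-likelihood test over 4998 genes. The mural cells of BPK 4NQO glands read higher for interferon-stimulated genes, matrix genes and several contractile genes than those of the vehicle gland, but single genes did not pass the test for any of these groups. In all, 2 genes were called higher (0.04% of those tested) and 0 lower (0%) at a Benjamini-Hochberg adjusted p under 0.05, while 105 genes had an unadjusted p under that level. DESeq2 called 0 genes, with 46 at an unadjusted p under that level. The fit has 1 residual degree of freedom, from the 2 BPK 4NQO libraries. Its estimated prior degrees of freedom were infinite, so that the quasi-likelihood spread was taken from the trend over genes. A gene's own difference between the replicates therefore hardly entered its p-value.

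The gene called within the naming rule was C3, the central complement component. It had 14 and 127 UMIs in the mural cells of the BPK 4NQO replicates (50.5 and 335 CPM), 0 UMIs in BPK vehicle and 5 UMIs in PK 4NQO (27.2 CPM). Replicate 2 was well above replicate 1, and both were above the vehicle gland. Against the 3 UMIs that a count of 0 allows in the vehicle library, the mean of BPK 4NQO was at least 14.8-fold higher (edgeR's quasi-likelihood test, adjusted p = 0.0461). The UMIs came from 6 and 26 cells. The fitted log2 fold change, which depends on the prior count because the vehicle gland is at 0, was 8.78, and it was 9.55 without replicate 1 and 6.56 without replicate 2. C3 lies on chromosome 17 at chr17:57203970-57228136 on the minus strand (mm10). Its adjusted p ran from 0.0477 to 1 over the alternatives, so that the call rests on the settings, and fibroblasts, at 1001 and 2709 CPM in BPK 4NQO, 533 CPM in BPK vehicle and 536 CPM in PK 4NQO, held far more C3 than mural cells.

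The other call was Hbb-bs, a beta-globin gene outside the naming rule that was singled out after its values were seen. It read 3495 and 2.64 CPM in the BPK 4NQO replicates, 4.36 CPM in BPK vehicle and 2016 CPM in PK 4NQO (edgeR adjusted p = 0.0461). Its UMIs lay in 2 cells of replicate 1 and in 1 cell of each other gland, and its log2 fold change was -0.50 without replicate 1.

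The genes next in rank did not pass, and their values are given as such. Slc15a3, a lysosomal transporter of histidine and peptides, read 25.3 and 193 CPM in BPK 4NQO, 0 in BPK vehicle and 16.3 CPM in PK 4NQO (edgeR adjusted p = 0.0655). Dclk1, a microtubule-associated kinase, read 43.3 and 92.4 CPM in BPK 4NQO and 0 in BPK vehicle (adjusted p = 0.357). C4b, complement component 4, read 54.1 and 60.7 CPM against 0 (adjusted p = 0.655). It has a near-identical copy in the mouse genome, and reads of the 2 may not be told apart. Serpina3n, a secreted protease inhibitor of the acute phase response, read 86.6 and 129 CPM in BPK 4NQO and 8.71 CPM in BPK vehicle (adjusted p = 0.674).

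Col12a1, a fibril-associated collagen, read 32.5 and 116 CPM in BPK 4NQO and 4.36 CPM in BPK vehicle (adjusted p = 0.655 by edgeR). Rnase4, a secreted ribonuclease that shares a locus with the Ang gene, read 46.9 and 111 CPM against 4.36 CPM (adjusted p = 0.655). Rbm24, a splicing regulator of muscle, read 14.4 and 89.8 CPM against 0 (adjusted p = 0.996). All of these, with Cd74, Cxcl10 and Tnc described below, were above the vehicle gland in both BPK 4NQO replicates. The same side in both replicates was a condition for naming them. The 8 fibroblast markers summed to 476 and 626 CPM in the mural cells of BPK 4NQO, 270.1 CPM in BPK vehicle and 473 CPM in PK 4NQO, and to 13400 to 14180 CPM in fibroblasts. Their part in these values was not tested.

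Interferon-stimulated genes are switched on when interferons signal to a cell, and complexes that contain an IRF factor bind repeats of GAAA in their promoters. The list held 28 such genes, of which 1 was not used because its symbol names 2 rows, and 23 passed the filter on low counts. Of these 23, 19 were above the vehicle gland in both BPK 4NQO replicates and 1 was below it in both, set beside 28.5% higher and 32.2% lower of all 4998 genes. At least 2-fold higher in both replicates were 12 of the 23, against 4.14% of all genes. The median log2 fold change of the list was 1.87 (1.86 with the gene at 0 in the vehicle gland set to its bound), against 0.06 for all genes. It was 2.03 without replicate 1 and 1.77 without replicate 2. No gene of the list passed the test across all genes. Genes that were low in the vehicle gland could pass the filter through the BPK 4NQO libraries, so that these counts describe the list and do not test it.

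The promoters of this list are shown because they carry a common motif. The motif GAAANNGAAA, the core of the interferon-stimulated response element, was searched on both strands in the 250 bases before the start of each gene in RefSeq (GRCm38.p6). It was present in 13 of the 21 list genes with a promoter in that table (61.9%), against 936 of all 27025 promoters (3.46%). It was present in 1 of 17 promoters of the contractile list (5.88%). A match is a description of the letters and not a shown binding site. Of the 12 genes that were at least 2-fold higher in both replicates, 6 carried the motif, and the stretches around it are printed 5′ to 3′ on the strand of the gene, with the motif on either strand in capitals.
Ifit1, chr19:34640765-34640833, plus strand: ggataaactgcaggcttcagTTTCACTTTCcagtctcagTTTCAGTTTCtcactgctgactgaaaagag
Isg15, chr4:156200855-156200916, minus strand: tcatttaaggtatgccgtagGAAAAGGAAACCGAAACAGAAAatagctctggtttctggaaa
Gbp2, chr3:142620584-142620633, plus strand: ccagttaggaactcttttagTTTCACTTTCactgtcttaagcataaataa
Gbp3, chr3:142559979-142560034, plus strand: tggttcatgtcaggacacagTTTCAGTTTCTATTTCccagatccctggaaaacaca
Igtp, chr11:58199502-58199551, plus strand: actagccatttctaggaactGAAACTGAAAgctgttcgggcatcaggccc
Cxcl10, chr5:92349073-92349122, minus strand: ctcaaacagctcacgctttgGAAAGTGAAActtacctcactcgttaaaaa
In Ifit1, Isg15 and Gbp3 the motif occurred more than once, and the matches in Isg15 and Gbp3 overlapped.

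Among the transcription factors of the pathway, Irf7, the inducible factor that amplifies type I interferon, read 68.5 and 158 CPM in the mural cells of the BPK 4NQO replicates, 17.4 CPM in BPK vehicle and 65.2 CPM in PK 4NQO. Irf1, an early-induced factor of the response, was the exception, with 375 and 380.3 CPM in BPK 4NQO against 527 CPM in BPK vehicle, and 304 CPM in PK 4NQO.

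Of the effectors, Ifit1, which binds viral RNA and whose promoter holds the motif at 2 places, read 46.9 and 71.3 CPM in BPK 4NQO, 8.71 CPM in BPK vehicle and 43.5 CPM in PK 4NQO. Isg15, a ubiquitin-like modifier, read 382 and 319.5 CPM in BPK 4NQO, 100.2 CPM in BPK vehicle and 397 CPM in PK 4NQO. Ifi27l2a, an interferon-induced membrane protein, read 581 and 349 CPM, 65.4 CPM and 331 CPM in the same order. In all 3 the vehicle gland was the lowest and PK 4NQO lay near the BPK 4NQO replicates.

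Among the GTPases of the interferon-gamma response the vehicle gland was the lowest for Iigp1 and Gbp2. Iigp1, which attacks the vacuoles of intracellular parasites, read 692.5 and 570.4 CPM in BPK 4NQO, 183 CPM in BPK vehicle and 619 CPM in PK 4NQO. Gbp2, a guanylate-binding protein, read 270.5 and 246 CPM, 105 CPM and 136 CPM. Irgm1, an immunity-related GTPase, read 54.1 and 52.8 CPM in BPK 4NQO, 43.6 CPM in BPK vehicle and 21.7 CPM in PK 4NQO, and Gbp4 read 46.9 and 23.8 CPM, 30.5 CPM and 27.2 CPM, so that for both of these another library was the lowest. Several of these GTPases have close copies in the genome, and the sources used here do not say how reads that match more than 1 copy were treated.

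The chemokines Cxcl9 and Cxcl10, which attract T cells through Cxcr3, were among the genes with the widest difference. Cxcl10 read 206 and 380.3 CPM in BPK 4NQO, 21.8 CPM in BPK vehicle and 206 CPM in PK 4NQO, with a log2 fold change over vehicle of 3.82 ± 1.27 (SE, edgeR adjusted p = 0.675). It was detected in 18 and 28 mural cells of the BPK 4NQO replicates, 4 of BPK vehicle and 13 of PK 4NQO. Cxcl9 read 296 and 644 CPM in BPK 4NQO, 87.1 CPM in BPK vehicle and 81.5 CPM in PK 4NQO, so that for Cxcl9 the PK gland lay with the vehicle gland.

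**Figure D4:**
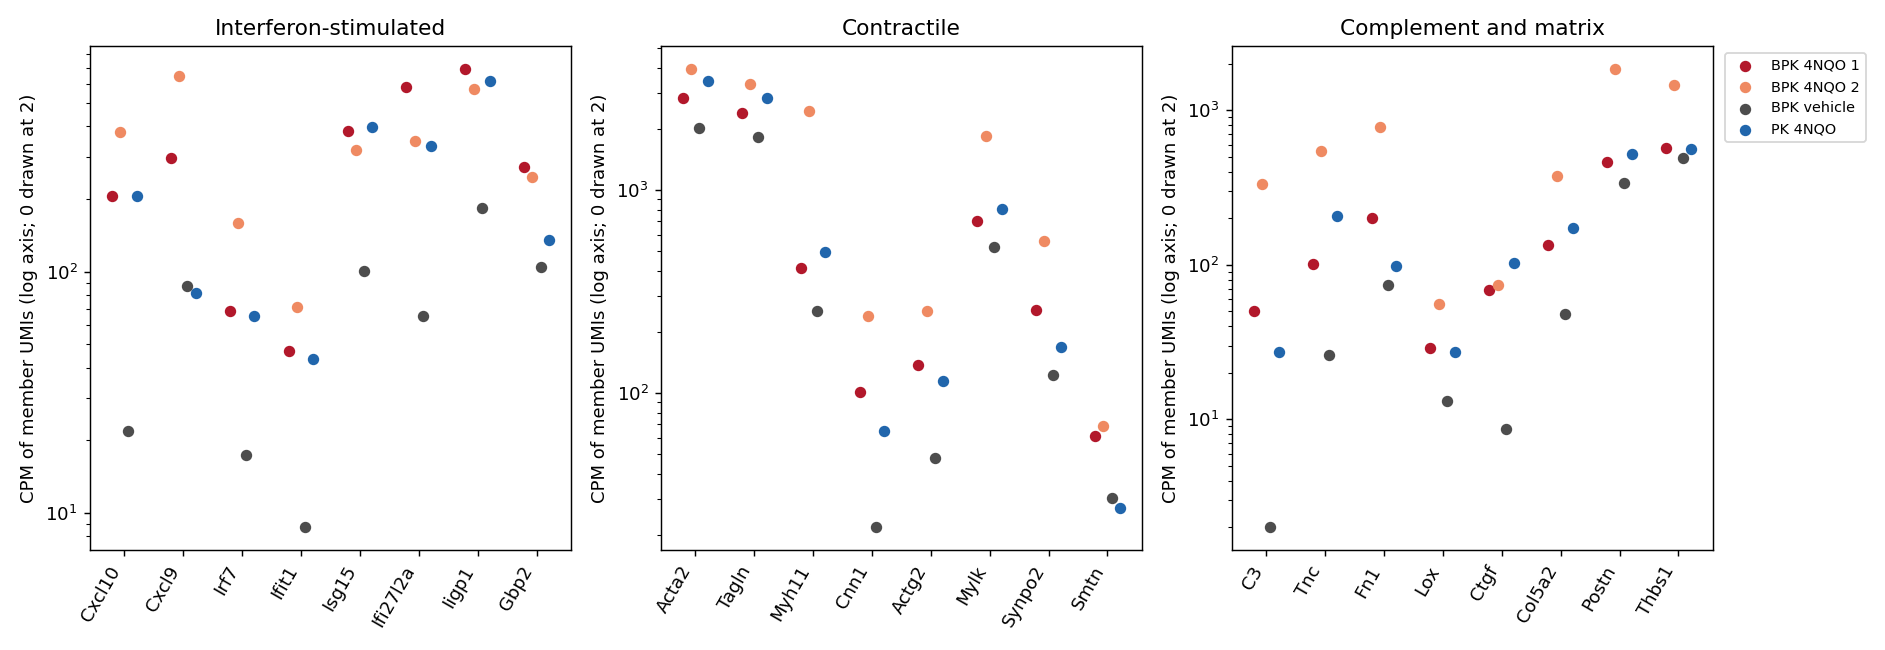
Points show the CPM of single genes in the mural cells of each gland library, on log axes, for interferon-stimulated, contractile, and complement and matrix genes. For each of the 8 interferon-stimulated genes both BPK 4NQO libraries lie above BPK vehicle, for example Cxcl10 at 206 and 380.3 CPM against 21.8 CPM.

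Endothelial cells, fibroblasts, basal cells and luminal cells of the BPK 4NQO glands also read higher for this list than those of the vehicle gland. Summed over the 27 list genes used, the level was 7892 and 7035 CPM in the mural cells of BPK 4NQO, 4322 CPM in BPK vehicle and 7959 CPM in PK 4NQO. In endothelial cells it was 7072 and 8108 CPM, 4356 CPM and 7161 CPM, and in fibroblasts 7316 and 5284 CPM, 2570 CPM and 4681 CPM. Basal cells read 4632 and 4337 CPM, 2089 CPM and 2911 CPM, and luminal cells 1712 and 1892 CPM, 672 CPM and 1148 CPM. In a test of whether the change under 4NQO differed between mural and endothelial cells, 0 of 8225 genes were called by edgeR (0%) and 0 by DESeq2, with 401 at an unadjusted p under 0.05 in edgeR. Against fibroblasts, 0 of 6934 genes were called by edgeR (0%) and 1 by DESeq2, with 264 at an unadjusted p under 0.05 in edgeR. A test that misses the threshold does not show that the cell types responded alike. C3 had an unadjusted p of 0.0171 against endothelial cells and 0.00826 against fibroblasts (adjusted p of 1 and 0.961 in edgeR's quasi-likelihood test). It was looked up because it was called on the same mural cell counts. These values therefore do not show that its difference was particular to mural cells.

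Antigen presentation genes are part of the same response. Of 14 genes of MHC class I and II and their loading machinery, 10 were tested, with a median log2 fold change of 1.06. Of these, 7 were above the vehicle gland in both BPK 4NQO replicates and 0 below it in both, beside 28.5% and 32.2% of all genes. In the mural cells without endothelial UMIs, 8 of 10 were above and 1 below, beside 32.3% and 33% of genes tested there. The median there was 1.84 (1.54 with the gene at 0 in a group set to its bound). Summed over the list, mural cells read 13800 and 7827 CPM in BPK 4NQO and 5951 CPM in BPK vehicle. The other classes were above vehicle too, with fibroblasts at 17970 and 7885 CPM against 3124 CPM, and endothelial cells at 18620 and 10550 CPM against 9860 CPM. Basal cells read 10030 and 4503 CPM against 2531 CPM, and luminal cells 7098 and 4044 CPM against 2533 CPM. H2-K1, a class I heavy chain, read 1861 and 2303 CPM in BPK 4NQO, 867 CPM in BPK vehicle and 1717 CPM in PK 4NQO. B2m, the class I light chain, read 5944 and 2540 CPM, 2244 CPM and 5846 CPM. Cd74, the class II invariant chain, read 50.5 and 222 CPM in BPK 4NQO, 4.36 CPM in BPK vehicle and 380.3 CPM in PK 4NQO (edgeR adjusted p = 0.538 over vehicle). Its UMIs in PK 4NQO, 70 in all, lay in 6 cells, and 88.6% of them in 1 cell. In replicate 2, 36.9% of its UMIs lay in 1 cell. The 8 leukocyte markers summed to 10.8 and 240.3 CPM in the mural cells of BPK 4NQO, 21.8 CPM in BPK vehicle and 375 CPM in PK 4NQO. Like Cd74, this sum was highest in PK 4NQO and next in replicate 2. In replicate 1 the sum was below the vehicle gland, whereas Cd74 was above it. The part of leukocyte RNA in the Cd74 values was not tested.

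**Figure D5:**
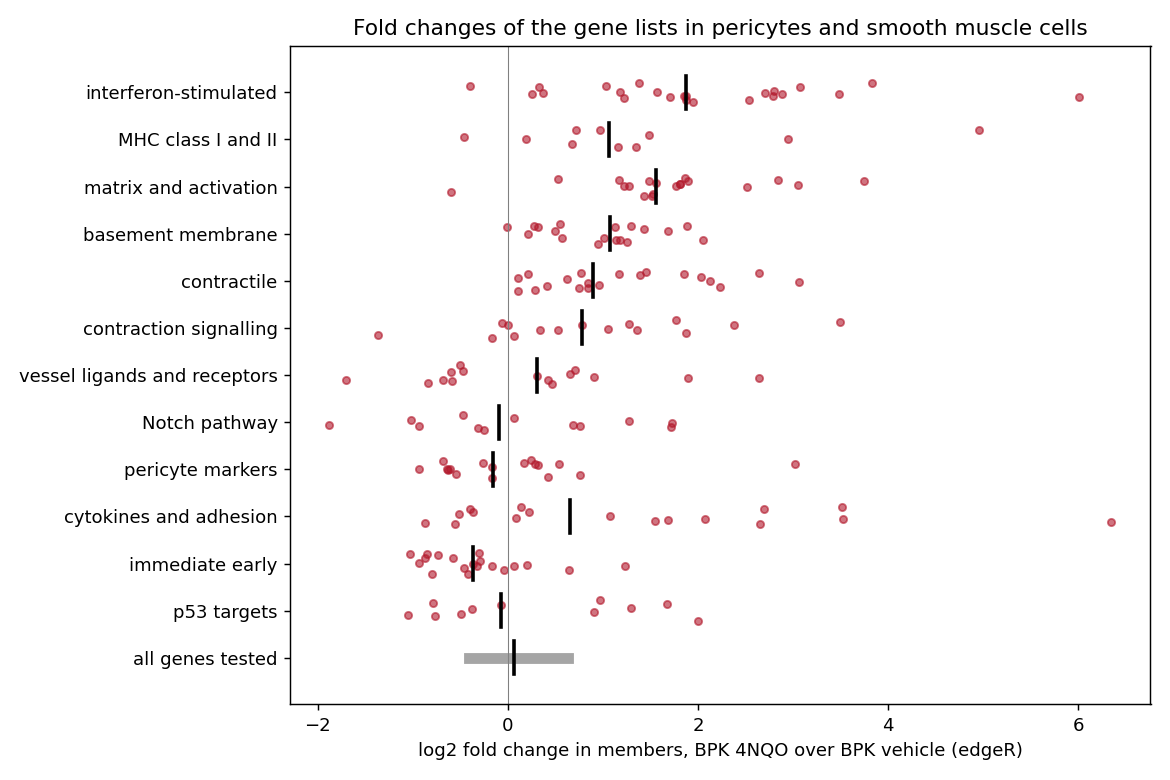
Each point is the log2 fold change of 1 gene in the mural cells, BPK 4NQO over BPK vehicle, for 12 gene lists; black bars are list medians and the grey bar is the middle of all 4998 genes, from their lower to their upper quartile. The list medians ran from -0.37 for immediate early genes to 1.87 for interferon-stimulated genes, against 0.06 for all genes.

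Contractile genes were higher in BPK 4NQO mural cells than in those of the vehicle gland, and the difference was smaller among mural cells without endothelial UMIs. Why it was smaller was not tested. Of 20 genes, all tested, 17 were above the vehicle gland in both BPK 4NQO replicates and 0 were below it in both, with a median log2 fold change of 0.90. The sum over the list was 17490 and 25150 CPM in BPK 4NQO, 12910 CPM in BPK vehicle and 19270 CPM in PK 4NQO. In the mural cells without endothelial UMIs the sum was 30230 and 27740 CPM, 26540 CPM and 27650 CPM, nearly level over the glands. There 11 of 19 genes were above the vehicle gland in both replicates and 3 below it in both, with a median of 0.45, against 32.3% and 33% of the 2539 genes tested in those cells.

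By gene, Acta2 read 2835 and 3956 CPM in BPK 4NQO, 2013 CPM in BPK vehicle and 3455 CPM in PK 4NQO. Without the cells holding endothelial UMIs it read 5415 and 4446 CPM, 4926 CPM and 5105 CPM, and the BPK 4NQO replicates lay on either side of the vehicle gland. For Tagln, the log2 fold change of 0.74 became -0.11 in those cells. Cnn1 kept its direction, with 101 and 240.3 CPM in BPK 4NQO, 21.8 CPM in BPK vehicle and 65.2 CPM in PK 4NQO, and 205 and 283 CPM, 46.8 CPM and 96.8 CPM without endothelial UMIs. Its log2 fold change over all mural cells was 3.06 ± 1.15 (SE, edgeR unadjusted p = 0.00812), not past the adjusted threshold.

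At least 2-fold above the vehicle gland in both replicates were 5 of the 20 genes, Cnn1, Smtn, Synpo2, Pln and Actg2, beside 4.14% of all genes. In the mural cells without endothelial UMIs it was 2 of 19, Cnn1 and Actg2, beside 5.63% of the 2539 genes tested there. Synpo2, an actin-bundling protein of the Z-disc and dense bodies, read 256 and 560 CPM in BPK 4NQO, 122 CPM in BPK vehicle and 168 CPM in PK 4NQO, and 473 and 618 CPM, 269 CPM and 202.5 CPM without endothelial UMIs. Actg2, the enteric smooth muscle actin, read 137 and 253.5 CPM, 47.9 CPM and 114 CPM. Pln, phospholamban, which restrains the calcium pump of the sarcoplasmic reticulum, read 50.5 and 31.7 CPM, 8.71 CPM and 5.43 CPM, and 110.4 and 37.3 CPM, 23.4 CPM and 8.80 CPM without endothelial UMIs. Myh11 itself read 411 and 2458 CPM in BPK 4NQO, 253 CPM in BPK vehicle and 494 CPM in PK 4NQO. Replicate 2 set the mean of Myh11, as it did for Mylk, the myosin light chain kinase, at 703 and 1838 CPM, 523 CPM and 809.5 CPM, and for Flna, the actin crosslinker filamin A, at 368 and 1175 CPM, 205 CPM and 239 CPM.

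The receptors and second messengers of contraction followed in part. Of 20 genes 15 were tested, with 9 above the vehicle gland in both BPK 4NQO replicates and 1 below it in both, and a median log2 fold change of 0.78. Leaving out replicate 2 brought that median to 0.18, and leaving out replicate 1 to 1.28. In the cells without endothelial UMIs 6 of 10 were above and 4 below, with a median of 0.92. Agtr1a, the angiotensin II receptor, was the gene below, at 39.7 and 39.6 CPM in BPK 4NQO against 109 CPM in BPK vehicle, and 43.5 CPM in PK 4NQO. Ednra, the endothelin receptor of smooth muscle, read 68.5 and 219 CPM in BPK 4NQO, 61.0 CPM in BPK vehicle and 114 CPM in PK 4NQO. Pde5a, which breaks down the cyclic GMP made by the guanylate cyclase, read 61.3 and 132 CPM, 30.5 CPM and 59.8 CPM. Ppp1r12b, a myosin phosphatase subunit, read 86.6 and 169 CPM, 26.1 CPM and 86.9 CPM.

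Over all mural cells, pericyte markers were as often above as below the vehicle gland. Of 19 genes 17 were tested, with 6 above the vehicle gland in both BPK 4NQO replicates, 6 below it in both and a median log2 fold change of -0.16. In the cells without endothelial UMIs 3 of 15 were above and 10 below, with a median of -0.61, beside 32.3% higher and 33% lower of the 2539 genes tested there. Ndufa4l2, a mitochondrial protein of pericytes, read 480 and 219 CPM in BPK 4NQO, 558 CPM in BPK vehicle and 679 CPM in PK 4NQO. Ebf1, a transcription factor of mural cells, read 1104 and 618 CPM, 1006 CPM and 929 CPM. Replicate 2 was the lowest gland for both genes, and also within the Myh11-positive cells and within those without Myh11. There Ndufa4l2 read 225 CPM with Myh11 and 189 CPM without in replicate 2, and Ebf1 read 609 and 661 CPM.

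Of 13 Notch pathway genes 12 were tested, with 3 above the vehicle gland in both BPK 4NQO replicates, 5 below it in both and a median log2 fold change of -0.09. In the cells without endothelial UMIs 5 of 7 were above and 2 below, with a median of 0.52. Heyl, a Notch3 target of smooth muscle, was the only one at least 2-fold higher in both over all mural cells, at 86.6 and 79.2 CPM in BPK 4NQO, 26.1 CPM in BPK vehicle and 32.6 CPM in PK 4NQO. Hes1, another Notch target, read 967 and 528 CPM, 745 CPM and 538 CPM. Jag1, the ligand that smooth muscle cells present to each other, read 64.9 and 129 CPM, 65.4 CPM and 81.5 CPM, and replicate 1 lay with the vehicle gland.

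Ligands and receptors that pass between mural cells and endothelium were likewise mixed, with 5 of 15 tested genes above the vehicle gland in both BPK 4NQO replicates and 6 below it in both, and 4 of 10 above and 3 below without the cells holding endothelial UMIs (median log2 fold change 0.31 and 0.51 in that order). Angpt1, the pericyte ligand that stabilises endothelium through Tek, read 36.1 and 68.7 CPM in BPK 4NQO, 8.71 CPM in BPK vehicle and 59.8 CPM in PK 4NQO. Pdgfa, a platelet-derived growth factor, read 184 and 224.5 CPM, 157 CPM and 206 CPM. Kdr, the endothelial VEGF receptor, read 278 and 31.7 CPM, 505 CPM and 125 CPM over all mural cells. Without the cells holding endothelial UMIs Kdr read 39.4 and 3.11 CPM, 11.7 CPM and 26.4 CPM, near or under the limit that a count of 0 allows, and the vehicle gland was no longer the highest.

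For genes of the basement membrane that mural and endothelial cells share, the difference rested mostly on replicate 2. Of 18 genes, all tested, 12 were above the vehicle gland in both BPK 4NQO replicates and 0 below it in both, but the median log2 fold change of 1.07 was 1.56 without replicate 1 and 0.07 without replicate 2. Without the cells holding endothelial UMIs 9 of 14 were above and 2 below, with a median of 1.19. Col4a1, a chain of type IV collagen, read 436 and 1450 CPM in BPK 4NQO, 431 CPM in BPK vehicle and 598 CPM in PK 4NQO. Col18a1, the source of endostatin, read 141 and 393.5 CPM, 69.7 CPM and 277 CPM. Sparc, a collagen-binding glycoprotein, was level at 3297 and 2831 CPM, 3246 CPM and 4422 CPM.

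Matrix and activation genes, which mural cells raise when they leave the quiescent state, had a wider difference with the same dependence on replicate 2. Of 20 genes 19 were tested, with 13 above the vehicle gland in both BPK 4NQO replicates, 1 below it in both and a median log2 fold change of 1.56. Leaving out replicate 1 gave a median of 2.13, and leaving out replicate 2 gave 0.45. Tnc, the de-adhesive protein tenascin-C, read 101 and 549 CPM in BPK 4NQO, 26.1 CPM in BPK vehicle and 206 CPM in PK 4NQO, with a log2 fold change of 3.75 (edgeR adjusted p = 0.724). It was detected in 17 and 44 mural cells of the BPK 4NQO replicates, 6 of BPK vehicle and 22 of PK 4NQO. Fn1, fibronectin, read 202 and 776 CPM, 74.1 CPM and 97.8 CPM. Ctgf, a target of the YAP and TGF-beta pathways, read 68.5 and 73.9 CPM, 8.71 CPM and 103 CPM. Postn, periostin, read 462 and 1856 CPM, 340 CPM and 521.5 CPM. Without the cells holding endothelial UMIs, 14 of 17 matrix genes were above the vehicle gland in both replicates and 0 below, with a median of 1.93 (1.58 with the gene at 0 in a group set to its bound). Fibroblast markers were also higher than in the vehicle gland. Of the 8, 5 were tested in mural cells and all 5 were above the vehicle gland in both BPK 4NQO replicates, with a median log2 fold change of 1.09. Summed over the matrix list, the level was 4880 and 13760 CPM in the mural cells of BPK 4NQO, 3786 CPM in BPK vehicle and 6948 CPM in PK 4NQO, and 30570 and 49910 CPM, 29650 CPM and 32810 CPM in fibroblasts. Without the cells holding endothelial UMIs, the matrix sum was 6992 and 14930 CPM in BPK 4NQO, 4283 CPM in BPK vehicle and 9727 CPM in PK 4NQO. The fibroblast markers there summed to 977 and 699 CPM, 515 CPM and 687 CPM, with the BPK 4NQO replicates in the opposite order. The part of fibroblast RNA in the matrix values was not tested.

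The interferon list kept its difference in the mural cells without endothelial UMIs. There 16 genes were tested, 13 were above the vehicle gland in both BPK 4NQO replicates and 1 below, and the median log2 fold change was 2.10 (1.72 with 3 genes at 0 in the vehicle gland set to their bounds), against 0.09 for all genes tested in those cells. In those cells edgeR called 1 gene of 2539 (0.0394%), Hbb-bs.

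The comparison of BPK 4NQO with PK 4NQO addresses the heterozygous Brca1 allele under the same agent. The mural cells of the 2 genotypes differed in no gene that passed the test. In edgeR 0 of 4998 genes were higher (0%) and 0 lower (0%), with 52 at an unadjusted p under 0.05, and DESeq2 called 0 with 13 at that level. The PK library was processed with an earlier Cell Ranger version and is 1 library, so that genotype, library and version cannot be told apart.

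The genes lowest in p included markers of other cells. Lars2, a mitochondrial tRNA synthetase whose reads come with ribosomal RNA in some libraries, read 10.8 and 1714 CPM in BPK 4NQO and 5.43 CPM in PK 4NQO (edgeR adjusted p = 0.114), and was high in replicate 2 alone. Cfd, adipsin, and Car3, carbonic anhydrase 3, are adipocyte markers. Cfd read 440 and 5.28 CPM in BPK 4NQO and 0 in PK 4NQO (adjusted p = 0.114). Car3 read 646 and 21.1 CPM in BPK 4NQO and 5.43 CPM in PK 4NQO (adjusted p = 0.234), and both were high in replicate 1 alone. The adipocyte markers summed to 1169 and 31.7 CPM in BPK 4NQO, 161 CPM in BPK vehicle and 10.9 CPM in PK 4NQO.

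Rcan1, a feedback inhibitor of calcineurin, read 21.6 and 18.5 CPM in BPK 4NQO against 206 CPM in PK 4NQO, and 78.4 CPM in BPK vehicle. Its log2 fold change was -3.26 ± 0.886 (SE, edgeR adjusted p = 0.234) and did not pass. Both replicates were below, and the naming rule required the same side in both. Ackr1, the chemokine receptor of venules, read 36.1 and 31.7 CPM in BPK 4NQO and 217 CPM in PK 4NQO (adjusted p of 1 by edgeR). It was detected in 3 and 6 cells of the BPK 4NQO replicates and 8 of PK 4NQO. Pmepa1, a membrane protein induced by TGF-beta that dampens its signal, read 54.1 and 185 CPM against 5.43 CPM (adjusted p = 0.879). Scd1, a fatty acid desaturase, read 141 and 50.2 CPM against 0 (adjusted p = 0.234). It was detected in 16 and 6 cells of the BPK 4NQO replicates, and 63.2% of its UMIs in replicate 2 lay in 1 cell. Neither Scd1 nor Ackr1 was among the genes tested in mural cells without endothelial UMIs. Hivep2, a zinc finger factor, read 57.7 and 166 CPM against 10.9 CPM, Cped1 read 68.5 and 164 CPM against 10.9 CPM, and Ifi202b, an interferon-inducible gene of a family of close copies, read 21.6 and 95.1 CPM against 0, each with an edgeR adjusted p of 1.

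By list, interferon-stimulated genes had a median log2 fold change of 0.55 over PK 4NQO, with 11 of 23 above PK 4NQO in both BPK 4NQO replicates and 4 below it in both. The background was 28% higher and 32.7% lower, with a median of 0.07. This comparison and that with vehicle share the BPK 4NQO libraries, and the difference between them was not tested. For MHC genes 1 of 10 was above and 5 below, with a median of -0.43. For contractile genes 8 of 20 were above and 4 below, with a median of 0.42, and for matrix genes 4 of 19 were above and 1 below, with a median of 0.67. Of the 4 genes called in the mural cells without endothelial UMIs (0.158% of 2539), Hba-a1 and Hbb-bs are globins high in BPK 4NQO replicate 1 alone, and Gm42418 and Lars2 were high in replicate 2 alone.

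The BPK tumor held 1 mural cell by the rule among 2290 passing barcodes (0.0437%, exact 95% interval 0.00111% to 0.243%), against 1.87% and 1.90% in the BPK 4NQO glands. That cell held 59 Rgs5 UMIs of 6539, with 8 of Higd1b, 4 each of Kcnj8 and Des, 3 each of Abcc9 and Notch3, and 0 of Myh11. It held 2 UMIs of Acta2 and 90 of Mgp, matrix Gla protein. In the tumor 54 barcodes held at least 2 Rgs5 UMIs and a second mural gene, and 52 of them were left out because they held more than 1 Krt14 UMI. After thinning every barcode to 1000 UMIs the rule took 24 of 2227 tumor barcodes (1.08%, 0.692% to 1.60%), and 23 of those 24 did not meet it at full depth. With a median of 19534 UMIs per tumor barcode, against 4295 and 2591 in the BPK 4NQO glands, the share by the rule and the depth cannot be told apart, and no test was made with 1 cell.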

How the data were processed

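The authors deposited UMI counts per gene and barcode for 27998 genes in each of 5 libraries, aligned to mm10 per the submitters' processing notes. Per the file headers, PK 4NQO was made with Cell Ranger 3.0.2 and each other library with Cell Ranger 5.0.1. Lymph nodes were removed, glands were digested with enzymes (collagenase XI, hyaluronidase, Dispase II and DNase I), and 3' v2 chemistry was used, per the labels' protocols. Each deposited barcode held at least 500 UMIs, and the sources used here give neither the cell-calling rule nor the annotation release. The stated dose of 4NQO was not used here.

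The members and gene lists were chosen with earlier results of these data known. Mural cell counts were summed per library and divided by their total for CPM. The 4 gland libraries entered 1 edgeR 4.0.16 quasi-likelihood fit (R 4.3.3, limma 3.58.1) with TMM scaling, edgeR's filter on low counts and Benjamini-Hochberg adjustment, called at 0.05. Spread came from the 2 BPK 4NQO libraries alone and was pooled over genes in the fit of the mural cells. The change under 4NQO was compared between mural cells and endothelial cells or fibroblasts as an interaction with library as a block, which holds what a library's cell classes share. No test was made for the tumor, since fewer than 30 mural cells were found. Endothelial cells needed 2 UMIs of Pecam1 and 1 of Cdh5, fibroblasts 1 of Pdgfra and 2 of Col1a1, basal cells 3 of Krt14, 1 of Krt5 and 2 of Acta2, and luminal cells 2 of Epcam and 1 of Krt8, each without markers of the others. Doublets were scored with scrublet (scanpy 1.11.5), taking the top 0.8% per 1000 barcodes, and were kept in the main results. Thinning drew 1000 UMIs per barcode without replacement and left out shallower ones. Intervals are exact Clopper-Pearson. The edgeR test of BPK 4NQO against BPK vehicle was run on simulated mural cell counts with known answers. The comparison with PK 4NQO, the interaction and DESeq2 were not.

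Named genes are the 15 with the largest fold change on each side among those called, provided their mean was 32 CPM or more and both BPK 4NQO libraries lay on the same side, or, where fewer than 10 were called, also the 10 with the lowest p. Xist and Y-linked genes, globin, immunoglobulin, predicted, mitochondrial and ribosomal protein genes were left out. Genes of the rule and lists are given as levels. Alternatives were DESeq2 1.42.0, relative log expression (RLE) scaling, no filter on low counts, only the compared libraries, at least 3 Rgs5 UMIs, a 10% mitochondrial limit, thinning, and leaving out doublets, cells with a Pdgfra UMI or each replicate. Leaving out mural cells with endothelial UMIs, and leaving out ribosomal RNA associated and hemoglobin genes, were chosen after seeing the data. Promoter sequences are from RefSeq, GRCm38.p6. The values of 1 gene of the interferon list are not reported here.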

Additional observations from a re-analysis of the deposited data

Results flagged for a closer look

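In the BPK tumor, 52 barcodes held at least 2 Rgs5 UMIs and a second mural gene together with more than 1 Krt14 UMI, and were left out of the mural cells by the limit on Krt14. They lie outside the comparisons of the report. In the gland libraries the same limit was failed by 15 and 7 such barcodes in BPK 4NQO, 15 in BPK vehicle and 11 in PK 4NQO. Whether these tumor barcodes hold RNA of mural cells was not tested.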

How the results depend on the processing

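Over the alternatives, the 2 genes called for BPK 4NQO against BPK vehicle became 0 with DESeq2, without doublets, without cells holding a Pdgfra UMI, with no filter on low counts, with only the compared libraries, at 3 Rgs5 UMIs and without ribosomal RNA associated and hemoglobin genes, became 1 without cells holding endothelial UMIs, and remained 2 in number with RLE scaling. Against PK 4NQO, 0 became 6 without doublets, 4 without cells holding endothelial UMIs and 1 at 3 Rgs5 UMIs. For the difference from endothelial cells, 0 became 15 without doublets, 2 without Pdgfra-positive cells, 4 without cells holding endothelial UMIs, 8 with no filter, 12 at 3 Rgs5 UMIs, 2 with RLE scaling and 2 without ribosomal RNA associated and hemoglobin genes. For that from fibroblasts, 0 became 1 with DESeq2, 1 without Pdgfra-positive cells, 24 with no filter and 3 without ribosomal RNA associated and hemoglobin genes. The causes were not tested.

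The log2 ratio of mural cell shares over BPK vehicle, 0.52, was 0.75 after thinning, 0.48 without doublets, 0.66 at 3 Rgs5 UMIs, 0.49 at the 10% mitochondrial limit, 0.90 without cells holding endothelial UMIs, and 0.52 to 0.53 without either replicate. Over PK 4NQO, 0.42 was 0.53 after thinning, 0.50 at 3 Rgs5 UMIs, and 0.41 to 0.43 without either replicate. The Myh11 difference was 5.83 to 45.0 points over BPK vehicle and -5.71 to 33.5 points over PK 4NQO without either replicate. Hbb-bs turned to -1.18 without doublets and ranged from -0.50 to 9.49 without either replicate, and Tagln to -0.11 without cells holding endothelial UMIs. Of 506 alternative values of 47 named genes, 476 counted as unchanged. With an adjusted p, this meant the same direction and the same side of the threshold. Without either replicate there was no adjusted p, and it meant a log2 fold change that moved by less than its standard error. Only C3 and Hbb-bs were called in the main fit, so that most of these values could only stay uncalled or become called.

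Leaving out a BPK 4NQO replicate leaves no residual degrees of freedom, so counts of calls could not be fitted there. No paired analysis was possible because only 1 group has 2 libraries and the groups share no second replicate number. Depth limits the low genes, since 3 UMIs are 7.92 to 16.3 CPM.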

Other observations

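Of the inflammatory cytokine and adhesion genes, 6 of 16 tested were above BPK vehicle in both BPK 4NQO replicates, 5 below it in both and none called, with a median log2 fold change of 0.65. In the mural cells without endothelial UMIs 5 of 13 were above and 5 below, with a median of 0.62. The sum over the list was 9342 and 10840 CPM in BPK 4NQO, 11010 CPM in BPK vehicle and 12440 CPM in PK 4NQO, and 13180 and 11080 CPM, 20700 CPM and 16280 CPM without endothelial UMIs. Cxcl1, a neutrophil chemokine, read 2482 and 2680 CPM in BPK 4NQO, 3520 CPM in BPK vehicle and 3466 CPM in PK 4NQO, and 3831 and 2801 CPM, 7805 CPM and 4815 CPM without endothelial UMIs. Ccl2, a monocyte chemokine, read 837 and 972 CPM in BPK 4NQO, 902 CPM in BPK vehicle and 1103 CPM in PK 4NQO, and 1435 and 1059 CPM, 2235 CPM and 1699 CPM without endothelial UMIs. Csf1, the macrophage growth factor, read 39.7 and 164 CPM, 17.4 CPM and 27.2 CPM in the same order and was at least 2-fold above the vehicle gland in both BPK 4NQO replicates, as was Ccl7, at 476 and 515 CPM, 179 CPM and 766 CPM. Without endothelial UMIs neither was 2-fold above it in both, with Csf1 at 55.2 and 168 CPM, 35.1 CPM and 17.6 CPM and Ccl7 at 938 and 515 CPM, 421 CPM and 1162 CPM. Cxcl2 was high in replicate 2 alone, at 101 and 1817 CPM, 253 CPM and 212 CPM. Cxcl12, which retains leukocyte progenitors, read 887 and 319.5 CPM, 1137 CPM and 614 CPM.

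Immediate early genes, which are also induced by enzymatic digestion of tissue, summed to 28600 and 18910 CPM in BPK 4NQO, 34230 CPM in BPK vehicle and 23070 CPM in PK 4NQO, with 14 of 19 tested genes below the vehicle gland in both BPK 4NQO replicates, and 10 of 17 without endothelial UMIs (median log2 fold change -0.37 and -0.20 in that order). Fos read 5133 and 2297 CPM, 4810 CPM and 3270 CPM. Junb read 4588 and 2163 CPM, 6313 CPM and 4091 CPM. Targets of p53 were mixed in BPK 4NQO against BPK vehicle, with 5 of 11 above and 5 below and a median log2 fold change of -0.07. Without endothelial UMIs 3 of 7 were above and 4 below, with a median of -0.49. Cdkn1a, the p53-induced inhibitor of the cell cycle, read 552 and 560 CPM in BPK 4NQO, 998 CPM in BPK vehicle and 722.5 CPM in PK 4NQO, while Mdm2, the p53 ubiquitin ligase, read 43.3 and 87.1 CPM, 21.8 CPM and 38.0 CPM. Proliferation genes were low, with Mki67 at 0 and 44.9 CPM in BPK 4NQO, 4.36 CPM in BPK vehicle and 5.43 CPM in PK 4NQO. Hk2, a hexokinase, read 54.1 and 349 CPM, 21.8 CPM and 43.5 CPM and was highest in replicate 2.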
